A study of Mus musculus with 2 samples.

Results

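The 51 genes described here encode the machinery that copies DNA and the regulators that start it at the passage from G1 into S phase. They were chosen by name, with earlier results of these data known, as were the further gene lists below. Every probe set with exactly 1 gene symbol in the array's platform annotation, that symbol being among the 51, was taken from the deposited table. This gave 55 probe sets for 49 of the 51 genes, out of 22180 genes with such a probe set. Rfc4 and Ccne2 were on the array only in probe sets annotated to a further gene as well, so no value of their own is given. Where a gene had several probe sets, it was represented by the one whose mean over both arrays was highest. A gene was kept when the higher of its 2 log2 intensities reached 4.10, the median of all values and called the filter level here; 48 members and 13712 genes in all were kept, and E2f2 was the 1 measured member left out.

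The 2 cultures were mouse bone marrow-derived dendritic cells, named GMDC by the submitters, and each was measured on 1 oligonucleotide array. The conditioned-medium culture was grown with medium from E0771 mouse mammary tumour cells after their exposure to topotecan, which blocks topoisomerase I. The control culture is labelled as control only. What medium the control received, the strain and age of the mice, the length of culture, and whether cells of several animals were pooled do not appear in the labels, so the treatment of the tumour cells, tumour-conditioned medium as such and any topotecan carried over in it cannot be told apart. With 1 array per culture no test, p-value or replicate error is possible, and every difference below is between 2 arrays.

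Replication begins when the origin recognition complex, Cdc6 and Cdt1 load the ring-shaped Mcm2 to Mcm7 helicase onto DNA in G1. At the start of S phase the kinases Cdc7-Dbf4 and cyclin E-Cdk2 help convert that ring, with Cdc45 and the GINS complex, into the active helicase, and polymerases, the sliding clamp and nucleotide-making enzymes follow. Many of these genes are known targets of the E2F transcription factors, which the retinoblastoma protein holds back in resting cells. Bone marrow cultures of this kind contain dividing precursors that differentiate into non-dividing dendritic cells.

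To show what E2F letters look like in these promoters, the 170 bases before the annotated start of 7 members are shown, taken from RefSeq on GRCm38.p6. The first 5 are examples from genes at least 2-fold lower with conditioned medium whose promoters hold E2F letters, Cdc45 had the largest downward difference without such letters, and Rfc3 had the largest upward difference with them. Capitals mark a match to the E2F letters on either strand, which were TTCCCGC, the variant TTCGCGC, the variant TTGCCGC and the variant TTGGCGC, and each sequence runs 5′ to 3′ toward the gene, ending at the base before the start.
Mcm5 (chr8:75109339-75109508, plus strand): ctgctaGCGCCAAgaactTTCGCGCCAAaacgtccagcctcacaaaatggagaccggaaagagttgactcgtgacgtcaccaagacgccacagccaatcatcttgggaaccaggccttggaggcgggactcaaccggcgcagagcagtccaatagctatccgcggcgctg
Mcm6 (chr1:128359706-128359875, minus strand): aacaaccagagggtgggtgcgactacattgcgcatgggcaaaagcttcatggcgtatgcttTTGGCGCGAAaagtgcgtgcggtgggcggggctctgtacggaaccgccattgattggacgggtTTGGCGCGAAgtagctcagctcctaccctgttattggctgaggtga
Pola1 (chrX:93632156-93632325, minus strand): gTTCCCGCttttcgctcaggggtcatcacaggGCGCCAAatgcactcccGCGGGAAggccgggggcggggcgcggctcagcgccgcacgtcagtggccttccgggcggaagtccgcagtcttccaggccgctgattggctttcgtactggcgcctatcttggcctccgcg
Prim1 (chr10:128015045-128015214, plus strand): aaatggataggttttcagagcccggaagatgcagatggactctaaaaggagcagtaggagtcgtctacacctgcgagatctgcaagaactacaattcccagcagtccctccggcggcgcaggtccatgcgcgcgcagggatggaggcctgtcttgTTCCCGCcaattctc
Rrm1 (chr7:102441525-102441694, plus strand): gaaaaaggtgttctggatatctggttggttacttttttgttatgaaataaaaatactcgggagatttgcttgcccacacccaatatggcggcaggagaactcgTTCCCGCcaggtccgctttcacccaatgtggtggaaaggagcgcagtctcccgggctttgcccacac
Cdc45 (chr16:18811973-18812142, minus strand): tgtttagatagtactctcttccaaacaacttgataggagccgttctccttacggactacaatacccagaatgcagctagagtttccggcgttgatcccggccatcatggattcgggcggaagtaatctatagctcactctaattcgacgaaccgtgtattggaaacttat
Rfc3 (chr5:151651209-151651378, minus strand): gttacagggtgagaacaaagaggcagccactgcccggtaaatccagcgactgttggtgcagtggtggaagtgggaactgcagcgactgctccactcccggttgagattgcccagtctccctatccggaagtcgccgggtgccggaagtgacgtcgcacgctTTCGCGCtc
In Mcm6 the letters occurred in 2 clusters, each read on both strands, and in Rfc3 they lay next to the start.

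Replication genes were mostly lower in the culture given conditioned medium. With conditioned medium, 19 of 48 kept members (39.6%) had a level at least 2-fold lower, 2 had one at least 2-fold higher and 27 lay between. Over all 13712 kept genes, 6.84% were at least 2-fold lower and 8.63% at least 2-fold higher. The difference, conditioned medium minus control on the log2 scale, was below 0 in 43 of the 48 members, against 54.0% of all kept genes. Of the 43, 5 (Orc1, Cdc7, Pole, Chaf1a and E2f8) reached the filter level only in the control culture, so the filter fixed their sign. With values set to that level, 19 members were still at least 2-fold lower. The members' median difference was -0.86, with quartiles of -1.46 and -0.53, and the median of all kept genes was -0.07, with quartiles of -0.45 and 0.36. At 1.5-fold, 34 members were lower and 3 higher, against 17.9% and 16.6% of all kept genes. At 3-fold, 7 were lower and 0 higher, against 2.11% and 4.14%. Only Cdc45, Prim1 and Mcm5 were at least 4-fold lower. Orc1 (2.11-fold lower) and Pold1 (2.12-fold) lay just past the 2-fold line, while Pcna (1.93-fold) and Chaf1b (1.89-fold) fell just short of it. In RNA of a whole culture, fewer dividing cells and less of these transcripts per cell cannot be told apart.

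**Figure D1:**
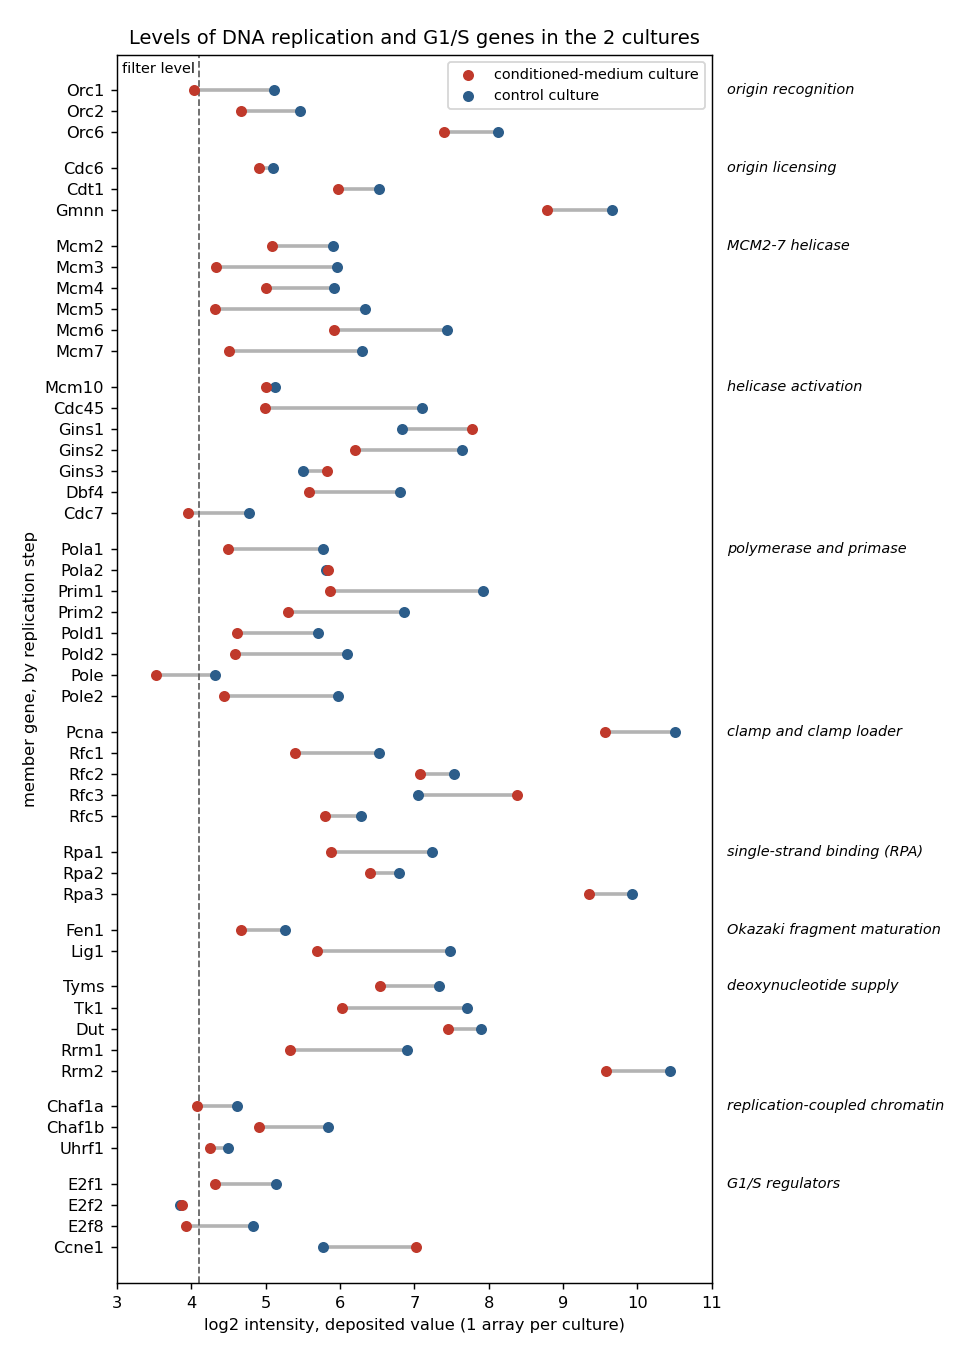
Each row is 1 of the 49 measured members, grouped by replication step, with its log2 intensity on the x axis in the conditioned-medium culture (red) and the control culture (blue); the dashed line is the filter level of 4.10. In 43 of the 48 kept members the red point lies left of the blue one, and Gins1, Gins3, Pola2, Rfc3 and Ccne1 are the exceptions.

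The share of genes past 2-fold varied with the level. Among kept genes with a mean level under 6, 5.57% were at least 2-fold lower, against 9 of the 24 members in that range. From 6 to under 8 the share was 10.6% of all kept genes, and 10 of 20 members. From 8 upward it was 6.03% of all kept genes, and 0 of 4 members, although those 4 (Gmnn, Pcna, Rpa3 and Rrm2) had a median difference of -0.86.

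Markers of granulocyte precursors were lower on the same array. Of 18 kept neutrophil and granulocyte precursor markers, 12 were at least 2-fold lower and 0 higher, with a median difference of -1.94. Among all kept genes 6.84% were at least 2-fold lower and 8.63% higher. Their summed log2 intensity was 102.9 with conditioned medium and 141.7 in the control culture. In the conditioned-medium culture 5 of the 18 (Mpo, Elane, Fcnb, Camp and Retnlg) lay under the filter level, and in the control culture none did. These 5 were thus kept only through the control culture. With values set to the filter level, 12 of the 18 were still at least 2-fold lower and 0 higher. The granule protein gene Camp had a log2 intensity of 3.03 with conditioned medium and 8.57 in the control culture, Ngp 4.16 with conditioned medium and 9.33 in the control culture, and Ctsg 5.12 with conditioned medium and 9.25 in the control culture. With its low value set to the filter level, Camp differed by -4.47. Csf3r (log2 difference 0.89), Cebpe (0.80) and Lcn2 (0.10) were the highest of the list. The part of these markers in the replication result was not tested.

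The other marker lists differed in direction, beside 6.84% of all kept genes at least 2-fold lower and 8.63% at least 2-fold higher. Of 15 kept dendritic cell markers, 5 were at least 2-fold higher and 4 lower. Dpp4 (log2 difference 2.25), H2-Aa (1.88) and Irf4 (1.83) were the highest, and Batf3 (-2.03), Clec10a (-2.01) and Flt3 (-1.23) the lowest. Flt3 had 3.15 with conditioned medium, under the filter level, and 4.38 in the control culture. Against that level it differed by -0.28, and 3 of the markers in place of 4 were then at least 2-fold lower. Itgax, which encodes CD11c, had 7.15 with conditioned medium and 8.18 in the control culture. Zbtb46, a marker of conventional dendritic cells, lay under the filter level on both arrays (3.65 on each), so that defining marker was not detected above it. The summed log2 intensity of the 16 measured dendritic markers was 106.7 with conditioned medium and 105.6 in the control culture. Of 13 macrophage and monocyte markers, 4 were at least 2-fold lower and 1 higher, from Csf1r (-2.93), Mrc1 (-2.74) and Ccr2 (-2.48) to Ly6c2 (1.18), Fcgr1 (0.98) and Itgam (0.62). The summed log2 intensity of the 13 was 118.1 with conditioned medium and 125.7 in the control culture, and none lay under the filter level in either. Of 11 measured T, B and NK cell markers, 4 lay under the filter level on both arrays, and Cd79b (-2.24) was the 1 past 2-fold. The other extremes of the 7 kept were Cd3d (-0.06) and Pax5 (equal on both arrays) on the lower side, and Cd4 (0.87, or 0.09 with its control value set to the filter level), Cd3e (0.55) and Ms4a1 (0.54) on the higher side. The summed log2 intensity of the 11 measured was 47.6 with conditioned medium and 48.7 in the control culture. The 7 kept had a median difference of 0.39, and 2 of them were below 0. Of 11 measured mammary epithelial markers, 8 lay under the filter level on both arrays, while Cdh1 (3.79) and Krt19 (2.15) were higher and Krt8 differed by -0.19. Their summed log2 intensity was 48.4 with conditioned medium and 43.6 in the control culture, and the part of any of these lists in the replication result was not tested.

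The origin recognition complex marks the sites where replication can start. Orc1, its largest subunit and the one whose protein level is known to change through the cell cycle in human cells, had a log2 intensity of 4.03 with conditioned medium and 5.11 in the control culture, 2.11-fold lower. The value with conditioned medium lay just under the filter level, and against that level Orc1 was 2.01-fold lower. Orc2, a core subunit, had 4.66 with conditioned medium and 5.46 in the control culture. Orc6, the smallest subunit, had 7.40 with conditioned medium and 8.13 in the control culture. All 3 were thus lower with conditioned medium, but Orc2 (1.73-fold) and Orc6 (1.66-fold) by less than 2-fold.

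The 3 licensing factors were lower by less than 2-fold. Cdc6, the ATPase that joins the origin complex to load the helicase, was nearly level, at 4.92 with conditioned medium and 5.10 in the control culture. Cdt1, its loading partner, had 5.97 with conditioned medium and 6.53 in the control culture (1.47-fold lower). Gmnn encodes geminin, which binds Cdt1 and blocks a further round of loading, and had 8.78 with conditioned medium and 9.65 in the control culture (1.84-fold lower). The inhibitor showed the largest difference of them.

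The helicase subunits were all lower. Mcm5 had the largest difference of the 6, with a log2 intensity of 4.31 with conditioned medium and 6.34 in the control culture, 4.08-fold lower. Mcm7 had 4.51 with conditioned medium and 6.30 in the control culture (3.45-fold lower). Mcm3 had 4.34 with conditioned medium and 5.96 in the control culture (3.08-fold lower). These 3 came close to the filter level in the conditioned-medium culture. Mcm6 had 5.92 with conditioned medium and 7.44 in the control culture (2.87-fold lower). Mcm4 had 5.01 with conditioned medium and 5.92 in the control culture (1.87-fold lower), and Mcm2, 5.08 with conditioned medium and 5.91 in the control culture (1.78-fold lower). The median difference of the 6 was -1.57. Although the 6 proteins form 1 ring in equal amounts, the probe sets that represent them differed by sizes from 1.78-fold to 4.08-fold. A probe set annotated to both Mir25 and Mcm7 had 4.80 with conditioned medium and 5.33 in the control culture (1.44-fold lower). Another, annotated to Mir93 and Mcm7, lay under the filter level on both arrays, and neither can be assigned to 1 gene.

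The factors that turn the loaded ring into a working helicase went in both directions. Cdc45, which binds the ring and completes the active helicase, had the largest downward difference of all members, at 4.99 with conditioned medium and 7.10 in the control culture (4.32-fold lower). Gins2 had 6.20 with conditioned medium and 7.64 in the control culture (2.72-fold lower). Gins1, a subunit of the same GINS complex, was on the other side, at 7.77 with conditioned medium and 6.84 in the control culture (1.91-fold higher). Gins3 was also slightly higher, at 5.83 with conditioned medium and 5.50 in the control culture (1.26-fold). Within 1 complex the subunits thus lay on opposite sides of the comparison. Gins4, the subunit outside the 51 genes, had 7.79 with conditioned medium and 8.37 in the control culture. Dbf4, the activating partner of the kinase Cdc7, had 5.59 with conditioned medium and 6.81 in the control culture (2.33-fold lower). Cdc7 had 3.96 with conditioned medium and 4.78 in the control culture, with the first value under the filter level (1.77-fold lower, or 1.60-fold against that level). Mcm10, which helps activate the helicase, was nearly level at 5.01 with conditioned medium and 5.12 in the control culture.

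Polymerase and primase genes held the largest share past 2-fold among the steps with more than 3 kept members, 6 of 8. Prim1, the catalytic primase subunit that makes the RNA start of each new strand, had 5.86 with conditioned medium and 7.92 in the control culture (4.17-fold lower). Prim2, the other primase subunit, had 5.31 with conditioned medium and 6.86 in the control culture (2.94-fold lower). Pola1, the catalytic subunit of polymerase alpha, which extends that start, had 4.49 with conditioned medium and 5.78 in the control culture (2.44-fold lower). Pola2, the accessory subunit of the same enzyme, was level, at 5.84 with conditioned medium and 5.81 in the control culture. Of the 4 genes of the polymerase alpha-primase complex, 3 were thus more than 2-fold lower and 1 was not. Among lagging-strand polymerase delta genes, Pold1, the catalytic subunit, had 4.62 with conditioned medium and 5.70 in the control culture (2.12-fold lower). Pold2, an accessory subunit, had 4.59 with conditioned medium and 6.09 in the control culture (2.83-fold lower). For the leading-strand polymerase epsilon, Pole2 had 4.45 with conditioned medium and 5.97 in the control culture (2.89-fold lower). Pole, its catalytic subunit, was near the filter level, at 3.52 with conditioned medium and 4.32 in the control culture. Its other probe set lay under the filter level on both arrays (3.43 with conditioned medium and 3.26 in the control culture) with a difference of opposite sign, so Pole is counted among the members below 0 but its direction is uncertain.

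**Figure D2:**
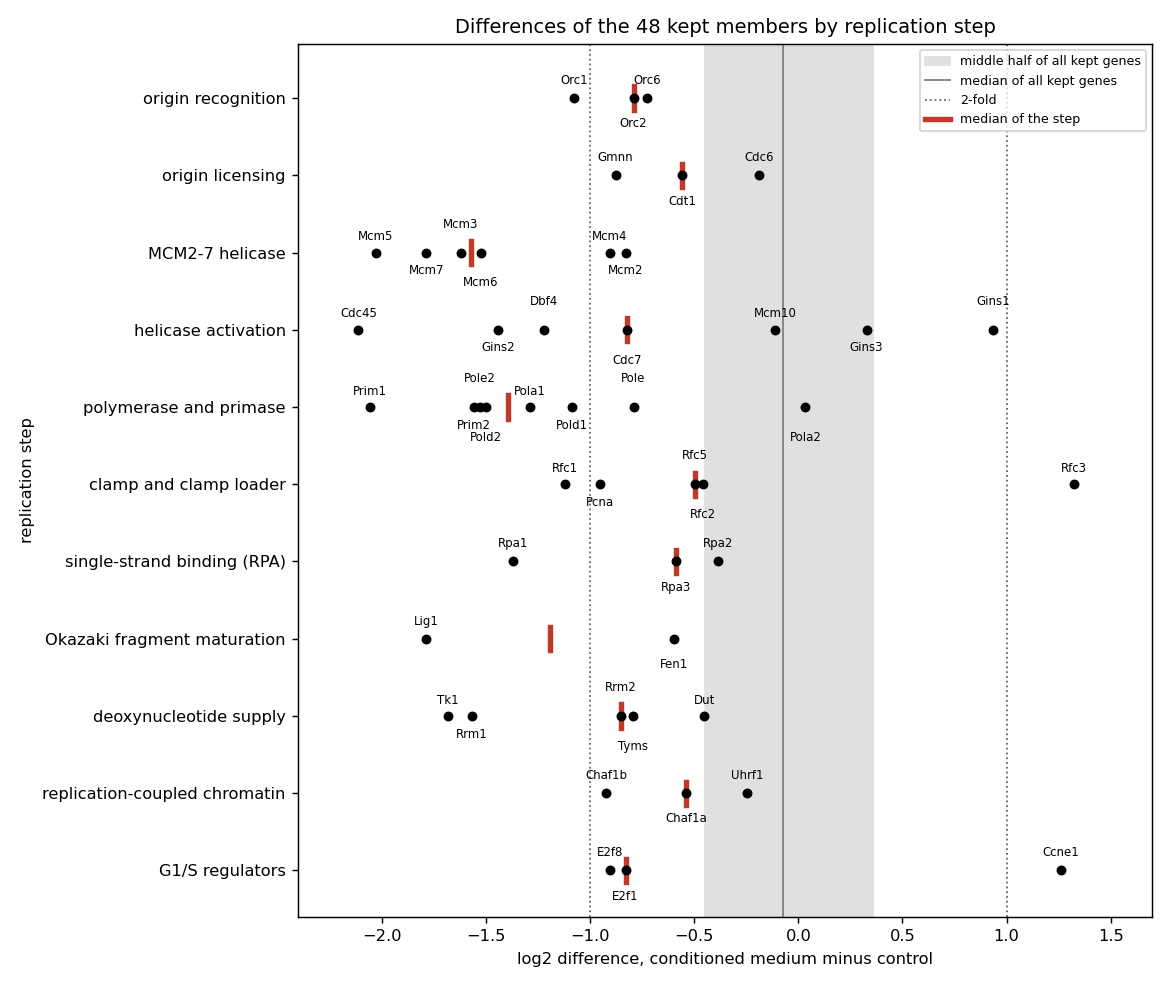
Each point is the log2 difference, conditioned medium minus control, of 1 of the 48 kept members, in rows by replication step; red ticks are step medians, dotted lines mark 2-fold and the grey band runs between the quartiles of all kept genes (-0.45 to 0.36). The Mcm2 to Mcm7 and polymerase rows lie furthest left, with medians of -1.57 and -1.39, and Rfc3 and Ccne1 lie right of the upper 2-fold line.

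The sliding clamp and its loader were split. Pcna, the ring that tethers polymerases to DNA, had 9.56 with conditioned medium and 10.51 in the control culture (1.93-fold lower). Rfc1, the large subunit of the clamp loader, had 5.40 with conditioned medium and 6.52 in the control culture (2.17-fold lower). Rfc3, a small subunit of the same loader, had the largest upward difference of all members, at 8.37 with conditioned medium and 7.05 in the control culture (2.50-fold higher). The loader subunits Rfc2 and Rfc5 differed less. Rfc2 had 7.08 with conditioned medium and 7.54 in the control culture, and Rfc5 had 5.79 with conditioned medium and 6.29 in the control culture. The probe set annotated to both Rfc4 and Eif4a2, a translation factor gene, had 5.67 with conditioned medium and 7.48 in the control culture, and its signal cannot be assigned to either gene.

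The single-stranded DNA binding protein RPA coats the unwound strands in replication and in repair. Rpa1, its large subunit, had 5.87 with conditioned medium and 7.24 in the control culture (2.58-fold lower). The other probe set of Rpa1 had 4.79 with conditioned medium and 5.03 in the control culture (1.18-fold lower), so the probe sets agreed in sign but not in size. Rpa2 had 6.41 with conditioned medium and 6.79 in the control culture. Rpa3, the smallest subunit, was read by 2 probe sets. One differed by -0.59 on the log2 scale (9.34 with conditioned medium and 9.93 in the control culture) and the other by -0.41 (8.66 with conditioned medium and 9.07 in the control culture).

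Okazaki fragment genes join the short pieces of the lagging strand. Lig1, the DNA ligase that seals them, had 5.69 with conditioned medium and 7.48 in the control culture (3.45-fold lower). Fen1, the nuclease that trims the flap before sealing, had 4.67 with conditioned medium and 5.26 in the control culture (1.51-fold lower). The other Fen1 probe set was 2.30-fold lower as deposited, at 3.15 with conditioned medium and 4.35 in the control culture, but 1.19-fold lower against the filter level.

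All 5 genes of deoxynucleotide supply were lower, and 2 of them by more than 2-fold. Tk1, the S-phase thymidine kinase that recycles thymidine, had 6.02 with conditioned medium and 7.71 in the control culture (3.21-fold lower). Rrm1, the large subunit of ribonucleotide reductase, had 5.33 with conditioned medium and 6.90 in the control culture (2.96-fold lower). Rrm2, the small subunit made in S phase, was 1.81-fold lower in the probe set that represents it (9.58 with conditioned medium and 10.43 in the control culture) and 1.63-fold lower in the other (4.81 with conditioned medium and 5.51 in the control culture). Both probe sets of the small subunit thus gave a smaller difference than the large subunit. Tyms, thymidylate synthase, had 6.54 with conditioned medium and 7.34 in the control culture (1.73-fold lower). A probe set annotated to both Tyms and Tyms-ps lay under the filter level on both arrays (3.63 with conditioned medium and 3.44 in the control culture). Dut, which removes dUTP, had 7.45 with conditioned medium and 7.90 in the control culture (1.37-fold lower), and its other probe set lay under the filter level on both arrays.

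Genes that rebuild chromatin behind the fork differed by less than 2-fold. Chaf1b, a subunit of the histone chaperone CAF-1, had 4.91 with conditioned medium and 5.84 in the control culture (1.89-fold lower). Its partner Chaf1a had 4.08 with conditioned medium and 4.62 in the control culture (1.45-fold lower), with the first value just under the filter level. Uhrf1, which guides DNA methylation to the new strand, had 4.25 with conditioned medium and 4.50 in the control culture (1.19-fold lower).

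Among the kept G1/S regulators, E2f1 and E2f8 were lower by less than 2-fold and the cyclin E1 gene was higher. E2f1, an activating E2F, had 4.31 with conditioned medium and 5.14 in the control culture (1.78-fold lower). E2f8, a repressing E2F that is itself an E2F target, had 3.93 with conditioned medium and 4.83 in the control culture (1.87-fold lower, or 1.66-fold against the filter level). E2f2 lay under the filter level on both arrays, at 3.88 with conditioned medium and 3.85 in the control culture. Ccne1, the cyclin that activates Cdk2 at the G1/S boundary, had 7.03 with conditioned medium and 5.77 in the control culture (2.40-fold higher). The probe set annotated to both Ccne2 and Ints8 had 5.03 with conditioned medium and 5.86 in the control culture and cannot be assigned to either gene. Cdk2 itself, outside the 51 genes, had 4.28 with conditioned medium and 4.72 in the control culture.

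The 5 members above 0 came from 4 steps. Rfc3, Ccne1, Gins1, Gins3 and Pola2 belong to the clamp loader, the G1/S regulators, the GINS complex and polymerase alpha, and each had partners that were lower. Each of the 5 was read by 1 probe set, so none of them has a further reading on these arrays. For scale, the differences of probe sets of the same gene had a pooled SD of 0.46 over the 652 genes with at least 2 probe sets past the filter. That spread covers probe sets on the same pair of arrays and not the spread between cultures.

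In the replication genes outside the 51, the median difference was nearer 0 and the range wider, from -2.86 to 2.03 against -2.11 to 1.32 in the members. Of 34 kept genes of that list, 7 were at least 2-fold lower and 2 higher, with a median difference of -0.34. These were 20.6% and 5.88%, against 6.84% lower and 8.63% higher among all kept genes. Top2a, the topoisomerase that untangles replicated DNA, had 5.67 with conditioned medium and 8.53 in the control culture (7.28-fold lower). Asf1b, a histone chaperone, had 4.71 with conditioned medium and 7.42 in the control culture (6.55-fold lower), and Dscc1, a subunit of an alternative clamp loader, had 3.64 with conditioned medium and 5.64 in the control culture (3.99-fold lower as deposited, and by a log2 difference of -1.54 against the filter level). On the other side Dck, deoxycytidine kinase of the salvage pathway, had 8.70 with conditioned medium and 6.67 in the control culture (4.08-fold higher). Timeless, a protein of the fork protection complex, had 6.06 with conditioned medium and 4.32 in the control culture (3.33-fold higher), while the gene of its binding partner Tipin had a log2 difference of -1.22. Rnaseh2b came next on the higher side, with a difference of 0.61. Tipin was named after its value was seen.

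The regulators of G1 outside the 51 genes were divided between the directions, with 4 of 30 at least 2-fold lower, 6 higher and a median difference of -0.08. As shares these were 13.3% lower and 20% higher, against 6.84% and 8.63% of all kept genes. The lower ones were Rb1, Fbxo5, E2f6 and Cks1b. All 3 D-type cyclin genes were higher, the class that drives Cdk4 and Cdk6 early in G1. Ccnd1 had 7.70 with conditioned medium and 5.40 in the control culture (4.93-fold higher), and Ccnd3 and Ccnd2 were 2.37-fold and 2.03-fold higher. Cdkn1a, the gene of the cyclin-dependent kinase inhibitor p21 and a known p53 target, had 11.33 with conditioned medium and 9.11 in the control culture (4.68-fold higher). Myc was 2.20-fold and Rbl1, a relative of the retinoblastoma protein, 2.33-fold higher. Rb1, the retinoblastoma gene, had 6.73 with conditioned medium and 9.41 in the control culture (6.39-fold lower). Fbxo5, an inhibitor of the anaphase-promoting complex and a known E2F target, was 3.54-fold lower, and E2f6, a repressor, was 2.25-fold lower as deposited but by a log2 difference of -0.68 against the filter level. Cdkn1b, the gene of the inhibitor p27, had a difference of 0.80. Activators and inhibitors of G1 progression therefore both stood among the higher genes. Cks1b, Ccnd2 and Rbl1 were named after their values were seen.

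Genes of the mitotic list, which also holds Ccna2 and Mki67, were lower with larger differences. In the conditioned-medium culture 6 of the 29 measured lay under the filter level. With values set to that level, 25 were still at least 2-fold lower and 2 higher. Of 28 kept, 25 were at least 2-fold lower and 2 higher, with a median difference of -2.00, against 19 lower and 2 higher of 48 replication members with a median of -0.86. Over all kept genes 6.84% were at least 2-fold lower and 8.63% higher. Ccnb2, a mitotic cyclin, had 5.33 with conditioned medium and 9.99 in the control culture (25.2-fold lower), Ube2c was 12.9-fold lower and Birc5 11.1-fold lower. Ccna2, the cyclin of S and G2 phase, had 5.20 with conditioned medium and 8.16 in the control culture (7.79-fold lower). Mki67, the proliferation marker, had 4.68 with conditioned medium and 6.15 in the control culture (2.77-fold lower). On the higher side stood Pttg1 at 2.63-fold and Tpx2 at 2.06-fold, and Cenpe (-0.15) was nearly level. Whether the replication and mitotic lists differ beyond the spread between cultures could not be tested with 1 array each.

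**Figure D3:**
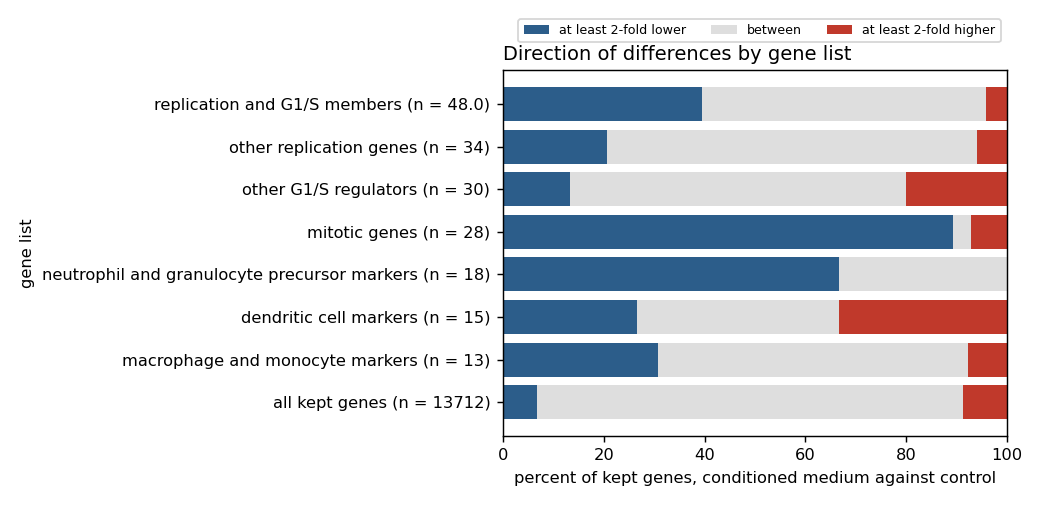
Bars give, for each gene list and for all kept genes, the percent of kept genes at least 2-fold lower (blue), between (grey) and at least 2-fold higher (red) with conditioned medium against control. The members are at 39.6% lower, between the mitotic genes (89.3%) and the other replication genes (20.6%), and all kept genes are at 6.84%.

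E2F letters were found in the promoters of most members that had one listed. The members were chosen by name and many are known E2F targets, so these letters are not independent of that choice. RefSeq promoters on GRCm38.p6, from 250 bases before to 50 bases after the start, were available for 43 of the 51 members (52 starts in all). At least 1 match to the E2F letters on either strand was found in 27 of the 43 (62.8%, exact 95% interval 46.7 to 77.0%, which covers counting error only). The same window held a match in 17.1% of 10762 kept genes and in 10.9% of all 27025 genes. The shares differed with base composition. Under 60% GC the letters were in 13 of 24 member promoters (54.2%) and in 9.06% of those of kept genes. From 60 to under 70% GC they were in 16 of 22 (72.7%) and in 19.3%. From 70% GC they were in 2 of 6 (33.3%) and in 23.4%, and 6 promoters are too few to place the members against the background. With a T added before each of these letters, 15 of 43 members (34.9%) held a match, against 4.20% of kept genes.

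The CCAAT letters, which are bound by NF-Y, were in 26 of 43 members (60.5%) and in 41.7% of kept genes. The letters TTCGAA and the variant TTTGAA, forms of the cell cycle homology region known from mitotic promoters, were in 11 of 43 members (25.6%) and in 16.9% of kept genes. In 4 member promoters an E2F match shared letters with a CCAAT match, and in 5 promoters E2F matches on opposite strands shared letters. The differences did not separate members with and without E2F letters. The 25 kept members with a match had a median difference of -0.92, with 12 at least 2-fold lower and 1 higher, and the 16 without had -0.81, with 5 lower and 1 higher. Rfc3, with the letters at its start, was the higher one with a match, whereas Ccne1 was the higher one without. Cdc45 and Tk1 were lower without them. A match is a run of letters and not a measured binding site, and no match says only that these letters are not in this window.

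**Figure D4:**
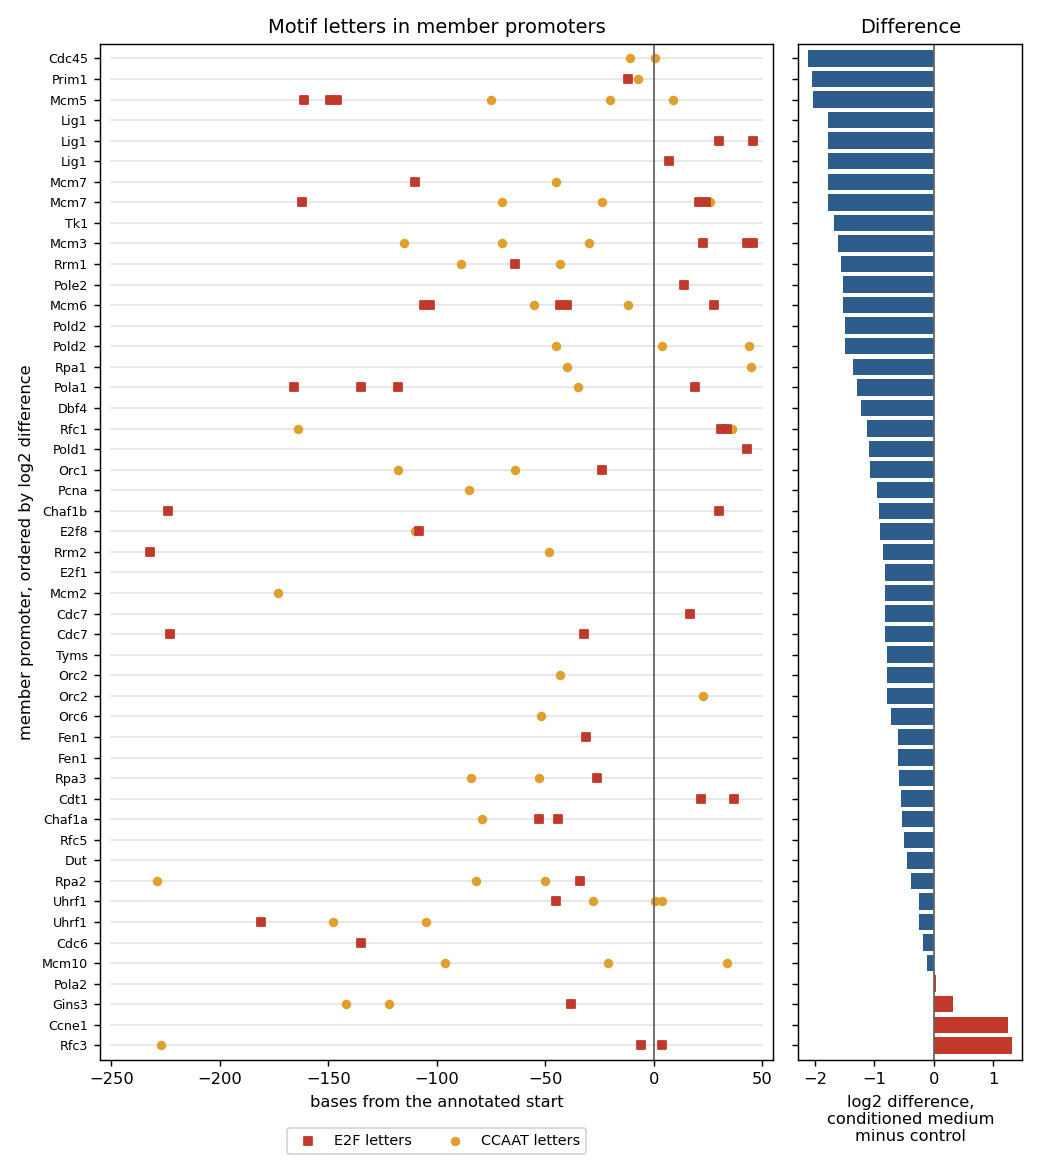
Left, each row is 1 of 49 promoters of 41 kept members, ordered by log2 difference from the lowest (top) to the highest, with the positions of E2F letters (red squares) and CCAAT letters (yellow circles) in bases from the annotated start; genes with several starts have several rows. Right, bars give the gene's log2 difference, conditioned medium minus control. Rows with red squares run from -2.06 to 1.32 and rows without them from -2.11 to 1.26.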

How the data were processed

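RNA of 2 cultures was measured on 1 array each. Per the labels' protocols, Trizol was used for extraction and cRNA was labelled with biotin. Affymetrix Expression Console is named in the submitters' processing notes; for its version, algorithm, normalization and genome build, nothing is stated. The authors deposited 1 value per probe set and array, taken as log2 intensity because they ran between 0.02 and 13.50 with conditioned medium and between -0.26 and 13.42 in the control culture (medians 4.09 and 4.10); the log base is an inference from that range. Ranked values of the conditioned-medium and control arrays lay 0.0149 apart on average, so their distributions were nearly equal and a common shift of the transcriptome may be hidden.

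Of 41345 probe sets, 23521 had 1 gene symbol in the platform annotation and stood for 22180 genes; 1814 with several symbols and 16010 without annotation were not used for members. Differences are conditioned medium minus control, and folds are its antilog. Genes were counted by size, at least 2-fold, since no test is possible. Where a value lay under the filter level of 4.10, the fold was also taken with that value set to 4.10.

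All members with a probe set are named. From each companion list the 3 highest and 3 lowest kept genes are named, and Cdkn1a, Cdkn1b, Rb1, Cdk2, Ccnd1, Myc, Ccna2 and Mki67 whatever their values. Gins4, Tipin, Cks1b, Ccnd2, Rbl1, Itgax, Zbtb46, Mpo, Elane, Fcnb and Retnlg were named after their values were seen. The members and lists were chosen with earlier results of these data known. The comparisons within level ranges and GC ranges were added after seeing the data. Counting, normalization and motif search were tested on simulated data. The number of arrays limits the precision. Python 3.11.15, numpy 2.4.6, pandas 2.3.3, statsmodels 0.14.6 and matplotlib 3.10.9 were used.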

Additional observations from a re-analysis of the deposited data

How the results depend on the processing

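The processing choices left the direction of the members that they kept in place. The number of members at least 2-fold lower stayed within 1.5 times of 19, and the median difference within 0.1 of -0.86, under quantile normalization, lowess subtraction, median centring, averaging of a gene's probe sets, no filter, a filter on the mean, a filter at the 75th percentile and values floored at the filter level. At 1.5-fold 34 members were lower, against 17.9% of all kept genes, and at 3-fold 7 were lower, against 2.11%. At 3-fold 0 members were higher, against 4.14% of all kept genes. Each of the 48 kept members kept its sign in every setting that kept it. A changed filter leaves a gene's difference as it was, and flooring cannot reverse it, so those settings could not turn a sign. The filter at the 75th percentile kept 37 members, and averaging kept 47, without Pole, whose probe sets differ in sign. Of the 19 members at least 2-fold lower, 18 remained so in each setting that kept them. Rpa1 did not, at -0.80 over the mean of its probe sets. The median of the G1/S regulators was 1.26 with the filter at the 75th percentile, where Ccne1 alone was left. E2F letters were found in 39.5% of members in the 150 bases before the start, against 10.2% of kept genes and 6.35% of all genes. No paired analysis was possible because each culture had 1 array. Signals near the filter level limit the folds of low genes.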
